A study of Homo sapiens with 8 samples.

Results

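The genes described here are 35 genes of the integrated stress response, serine and one-carbon metabolism, and the cytosolic aminoacyl-tRNA synthetases. They were chosen by symbol from a list, and all 35 were found among the 43682 gene symbols of the RNA count tables. Each of the 35 also passed the filter on low counts, which left 24417 genes for testing. The libraries came from UM-RC-2, an established line of clear cell renal cell carcinoma whose own VHL gene carries a missense mutation per the labels. Cells stably carried either VHL or a construct that the labels name VEC, both delivered by lentivirus and selected in 10 µg/ml blasticidin, and were grown in DMEM with serum. Both groups therefore share the mutant VHL allele, the virus and the drug. Each group had 2 RNA libraries, numbered replicate 1 and replicate 2, and the labels say neither whether these came from separate cultures nor whether the cells were a pool or a clone. The p-values below thus measure a spread that may be technical. With group alone, it is the spread between the libraries of a group. With the replicate number as a blocking term, it is how far the change from VEC to VHL differs between the 2 replicate numbers, pooled in part over genes. The error given for a gene is therefore not that gene's own difference between the replicate numbers. In bulk RNA, fewer expressing cells and less RNA per cell cannot be told apart.

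Cells that run short of an amino acid accumulate uncharged tRNA, which activates the kinase GCN2. GCN2 and its relatives phosphorylate the translation factor eIF2, which slows protein synthesis overall while letting the transcription factor ATF4 be translated. ATF4 then raises transcription of genes for amino acid uptake, serine synthesis and tRNA charging, together with stress regulators such as DDIT3 and TRIB3. Because ATF4 is controlled largely at translation, its own mRNA is an incomplete readout, and its target genes are the usual one. The question put to these genes was whether they moved where SLC1A1, the gene of the acidic amino acid carrier EAAT3, is lower after VHL is returned.

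VHL and SLC1A1 set the frame for that comparison. Levels are given as CPM, that is, counts scaled to library size with TMM factors, and always with the VEC library before the VHL library of the same replicate number. VHL mRNA measured 37.1 and 146 CPM in replicate 1, and 88.9 and 151 CPM in replicate 2. SLC1A1 measured 56.0 and 10.5 CPM in replicate 1, and 25.6 and 5.39 CPM in replicate 2. In both pairs VHL was thus higher in the cells given VHL, as the library labels have it. SLC1A1, of which the labels say nothing, was lower in both. Total counts ranged from 16230291 to 50027348 per library. The replicate numbers differed far more than the groups: pseudogenes took 1.33% and 2.04% of counts in the replicate 1 libraries against 31.2% and 24.9% in the replicate 2 libraries. Each gene was compared within its replicate number, and an edgeR fit with the replicate number as a blocking term (the blocked fit) is given beside the fit with group alone. The log2 change of SLC1A1 was -2.33 in the blocked fit (edgeR adjusted p = 1.35e-17). With group alone it was -2.36 (edgeR adjusted p = 0.999991). Renal markers were present, with PAX8 at 1416 to 2458 counts, although EPCAM had at most 2. The 9 renal markers, CA9 among them, summed to 4236 and 2145 CPM in the VEC libraries and to 2611 and 1336 CPM in the VHL libraries, lower in VHL in each pair. A single gene weighs heavily in these sums: the largest count of 1 marker was 60574, where the list summed to at most 98046. Of the 8 tested, 7 were lower in VHL in both pairs and 1 had opposite signs. The 9 markers of other cell types summed to 18.2 and 48.7 CPM against 11.9 and 42.0 CPM, with CD3E, PECAM1 and VWF at 0 in every library. Of the 9, 5 had at most 1 count in every library. A single gene weighs heavily here too: the largest count of 1 marker was 1925, where the list summed to at most 2223. What part either list has in the results was not tested.

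Promoter sequence gives one way to see what these genes share. ATF4 binds DNA together with C/EBP proteins at a composite site, searched here as TGATGNAA on both strands. The RefSeq promoter table (GRCh38.p14, 250 bases before to 50 after a start) held 28 of the 35 genes. The table lacked SHMT2, NUPR1, ALDH1L2, EIF4EBP1, YARS1, LARS1 and PSPH. The core occurred in 11 of the 28 (39.3%), against 4.46% of the 27305 genes in the table. The 11 were ATF3, CEBPG, CHAC1, HERPUD1, AARS1, CARS1, GARS1, IARS1, MARS1, NARS1 and TARS1, of which 7 are synthetase genes. The 7 promoters in which the core lies wholly upstream of the start are shown with up to 16 flanking bases, on the strand of the gene and with the core in capitals, because they let the shared letters be compared directly:
ATF3 (chr1:212565200-212565239, plus strand): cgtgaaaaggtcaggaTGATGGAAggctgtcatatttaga
CEBPG (chr19:33374055-33374094, plus strand): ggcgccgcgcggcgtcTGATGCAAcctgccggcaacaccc
CHAC1 (chr15:40953246-40953285, plus strand): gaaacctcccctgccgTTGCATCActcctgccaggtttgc
HERPUD1 (chr16:56931950-56931989, plus strand): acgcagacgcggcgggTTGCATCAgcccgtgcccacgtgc
AARS1 (chr16:70289670-70289709, minus strand): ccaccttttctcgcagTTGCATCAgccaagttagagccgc
GARS1 (chr7:30594829-30594868, plus strand): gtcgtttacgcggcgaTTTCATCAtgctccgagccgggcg
IARS1 (chr9:92293698-92293726, minus strand): ccgcattttcagcgcgTTGCATCAcctcc

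In CHAC1, HERPUD1, AARS1, GARS1 and IARS1 the promoters carry the core on the opposite strand, so that it reads TTGCATCA or TTTCATCA on the gene's own strand. The distance of the core from the annotated start ran from 209 bases upstream in CHAC1 to 13 bases upstream in IARS1, counted to the first base of the core. A match describes letters and does not show that ATF4 binds there in these cells.

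The ER stress response element, CCAAT and CCACG with 9 bases of any kind between them, is known from genes of the unfolded protein response. It was found in 2 of the 28 genes, HSPA5 and XBP1, against 0.0916% of genes in the table. Both copies are shown on the gene's strand with the fixed outer letters in capitals, since these are the genes read out below for stress of the endoplasmic reticulum:
HSPA5 (chr9:125241375-125241425, minus strand): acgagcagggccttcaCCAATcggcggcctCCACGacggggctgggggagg
XBP1 (chr22:28800587-28800637, minus strand): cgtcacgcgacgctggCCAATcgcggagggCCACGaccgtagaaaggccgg

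Among the 35 genes, 1 fell and 1 rose in the blocked fit, and the other 33 did not pass the threshold. SHMT2, the mitochondrial enzyme that splits serine into glycine and a one-carbon unit, fell in VHL cells, and PSAT1, the aminotransferase of serine synthesis, rose. Calls are genes with a Benjamini-Hochberg adjusted p under 0.05 over all genes tested. Of all 24417 genes, 3.1% were called in the blocked fit (0.749% higher and 2.35% lower in VHL), so 2 of 35 is near the share in the whole table. With group alone, edgeR's quasi-likelihood test called 0 of the 35 and 0 of all genes, and gave an unadjusted p under 0.05 for 0 of the 35 and for 22 (0.0901%) of all genes. DESeq2 without the block called 0.0246% of all genes and 0 of the 35. DESeq2 with the block called 4 of the 35, adding MTHFD2 and IARS1, where 4.93% of all genes were called. That fit gave no adjusted p for 10415 of the 24417 genes, ATF3, CEBPB, CHAC1 and EIF4EBP1 among them. The 4.93% counts all of these as not called. Of the 13710 protein-coding genes tested, it called 1076 and gave no adjusted p for 3604. The blocked edgeR fit called 2 of the 35 with DESeq2 size factors (4.09% of all genes) and under a stricter filter (3.41%), and 1 with no filter (1.95%).

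The median log2 change over the 35 genes was 0.08 in the blocked fit, beside -0.03 over all genes tested. Within replicate 1 it was 0.08, and within replicate 2 it was -0.01. Within pairs, 14 of the 35 were higher in VHL in both, 9 were lower in both and 12 had opposite signs. Signs matched in 23 of 35, where 47.7% of all genes tested and 59.0% of the protein-coding genes tested had matching signs. Scaling on protein-coding genes alone changed these counts to 12 higher, 8 lower and 15 opposite. With that scaling, 3819 of the 13710 protein-coding genes tested were higher in both pairs, 4382 were lower in both and 4734 had opposite signs. All but SHMT2 and CHAC1 stayed under a log2 change of 1 in both pairs. In CPM the VHL libraries lay wholly above the VEC libraries for 3 genes, CEBPB, PSAT1 and MTHFD2, where 4.47% of all genes tested did so. They lay wholly below for 2, TRIB3 and HERPUD1, where 3.39% did so, which makes 7.86% separated either way. Separation was more common among the 13710 protein-coding genes tested, with 970 wholly above and 679 wholly below.

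**Figure D1:**
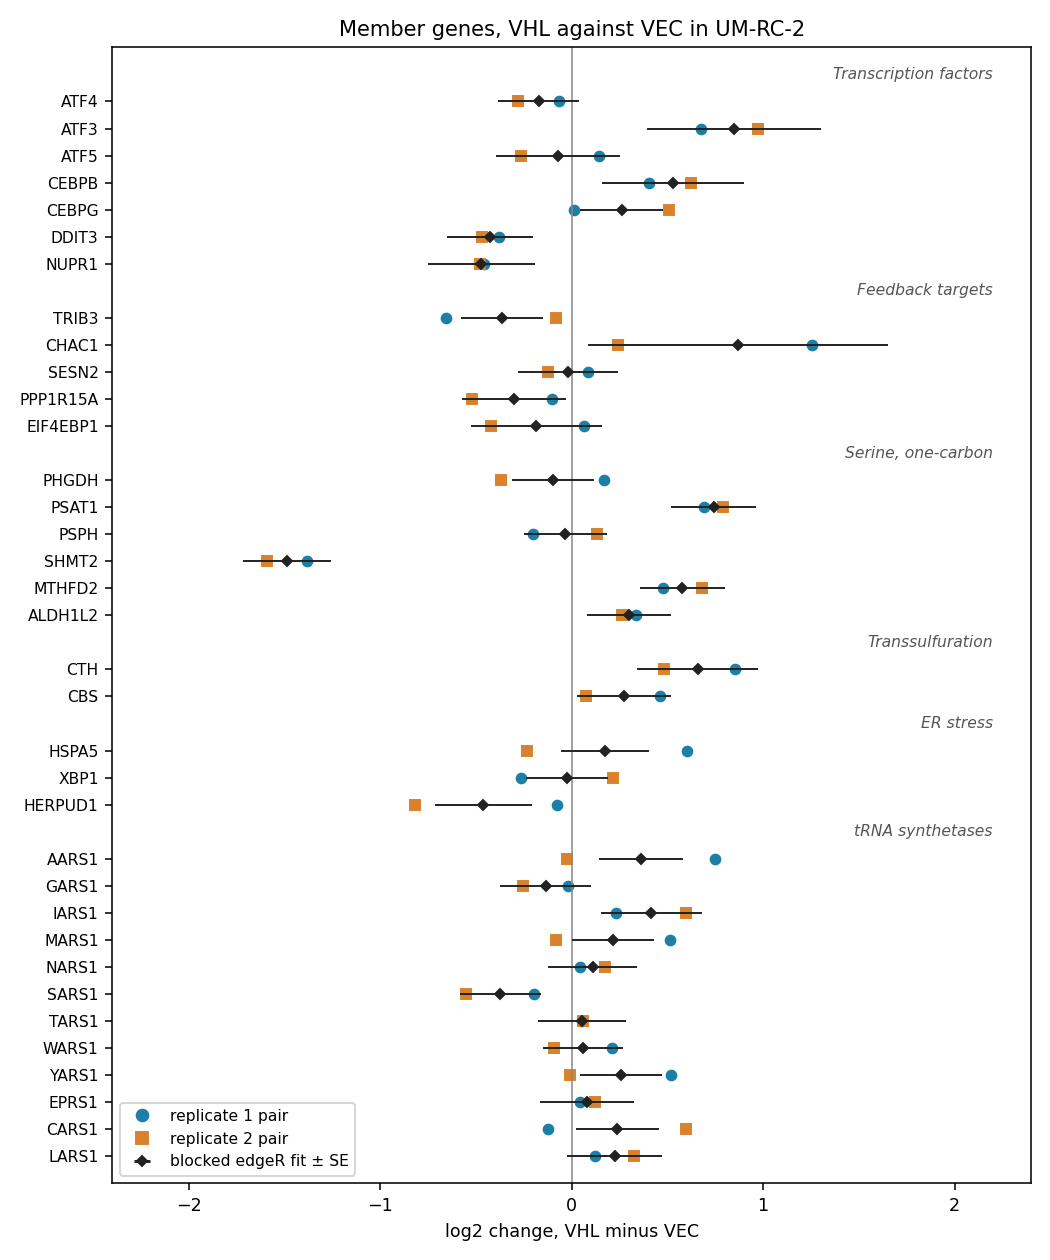
Log2 change (VHL minus VEC, x axis) of each of the 35 genes (y axis, grouped by role) within replicate 1 (circles), within replicate 2 (squares) and in the blocked edgeR fit (diamonds, bars are ± SE). SHMT2 stands alone at -1.49, PSAT1 lies at 0.74 with both pairs alike, and most other genes have bars that reach or lie near 0.

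Serine synthesis runs from a glycolytic intermediate through PHGDH, PSAT1 and PSPH, and mitochondrial one-carbon metabolism continues from serine through SHMT2, MTHFD2 and ALDH1L2. These 6 genes held both calls, and the calls pointed in opposite directions. SHMT2 counts were 7401 (VEC) and 2290 (VHL) within replicate 1, and 4223 and 1253 within replicate 2. In CPM this was 320 against 123, and 92.6 against 30.7. Each VHL library was below the VEC library of its own number, by a factor of 2.60 in replicate 1 and 3.02 in replicate 2, although the groups overlap when the numbers are pooled because SHMT2 read higher in replicate 1. The blocked log2 change was -1.49 ± 0.23 (edgeR adjusted p = 3.06e-08, error as SE here and below, n = 2 libraries a group), and SHMT2 ranked 71 by p among 24417 genes. Group alone gave -1.43 ± 1.08 (edgeR adjusted p = 0.999991). Every blocked fit that was run called SHMT2, with edgeR or DESeq2 adjusted p-values of at most 3.27e-07.

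SHMT2 overlaps NDUFA4L2 (COXFA4L2 in the current RefSeq annotation), a hypoxia-induced gene of the respiratory chain, and the use of strand in counting is not given in the sources used here. NDUFA4L2 had 49 and 4 counts in replicate 1 and 11 and 2 in replicate 2. Its part in the SHMT2 counts was not tested. The cytosolic enzyme of the same reaction, SHMT1, was at 144 and 129 CPM in replicate 1 and 71.0 and 50.1 CPM in replicate 2, with a blocked change of -0.33 ± 0.22 (edgeR adjusted p = 0.613).

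PSAT1 measured 104 and 168 CPM in replicate 1, and 77.4 and 134 CPM in replicate 2. Both VHL libraries were above both VEC libraries. Its log2 change was 0.69 and 0.79 in the pairs and 0.74 ± 0.22 when blocked (edgeR adjusted p = 0.0324). The call was lost when no filter on low counts was applied (0.73, edgeR adjusted p = 0.0844) and with group alone (0.74 ± 0.46, edgeR adjusted p = 0.999991). Replicate 2 also holds reads at 4 PSAT1 pseudogenes, 2363 in VEC and 2933 in VHL, against 2 and 4 in replicate 1. With those reads added, the log2 change was 0.69 in replicate 1 and 0.67 in replicate 2. The upstream part of its promoter is shown because PSAT1 is the called gene for which the table has one, and no letters are in capitals because neither the ATF4 core, nor the ER stress response element, nor ACGTG, the core bound by hypoxia-inducible factors, was found in its window:
PSAT1 (chr9:78296875-78297124, plus strand): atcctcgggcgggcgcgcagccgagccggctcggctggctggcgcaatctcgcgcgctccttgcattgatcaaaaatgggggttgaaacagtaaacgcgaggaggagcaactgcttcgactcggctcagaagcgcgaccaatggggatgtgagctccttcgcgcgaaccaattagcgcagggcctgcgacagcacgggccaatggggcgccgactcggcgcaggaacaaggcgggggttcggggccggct

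MTHFD2, the mitochondrial methylene-tetrahydrofolate dehydrogenase and cyclohydrolase, was at 112 and 155 CPM in replicate 1 and at 95.5 and 153 CPM in replicate 2. As with PSAT1, both VHL libraries exceeded both VEC libraries, and the pair changes were 0.48 and 0.68. The blocked change of 0.58 ± 0.22 missed the threshold (edgeR adjusted p = 0.163). It passed when protein-coding genes alone were tested (edgeR adjusted p = 0.0294, where 7.1% of genes were called) and in the blocked DESeq2 fit (adjusted p = 9.09e-08). Its 7 pseudogenes took 2116 and 2672 counts in replicate 2, and the change with them added was 0.62 there. MTHFD2 also overlaps SLC4A5, which had 8 and 11 counts in replicate 1 and 741 and 644 in replicate 2. The part of SLC4A5 in the MTHFD2 counts was not tested. One ACGTG core, on the opposite strand and in capitals, lies near the far end of the upstream part, and 24.9% of genes in the table hold that core somewhere in their window:
MTHFD2 (chr2:74198365-74198614, plus strand): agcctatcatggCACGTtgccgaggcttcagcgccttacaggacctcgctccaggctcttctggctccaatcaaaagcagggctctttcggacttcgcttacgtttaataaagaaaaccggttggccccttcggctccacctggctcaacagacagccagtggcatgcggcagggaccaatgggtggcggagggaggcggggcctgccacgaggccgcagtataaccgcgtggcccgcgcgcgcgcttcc

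PHGDH, the first enzyme of serine synthesis, did not move one way. It was measured at 114 and 128 CPM in replicate 1 and at 35.6 and 27.5 CPM in replicate 2, so that VHL was higher in the first pair (0.17) and lower in the second (-0.37). Its blocked change was -0.10 ± 0.21 (edgeR adjusted p = 0.966). PSPH, which releases serine in the last step, changed by -0.20 and 0.13. ALDH1L2, a mitochondrial formyl-tetrahydrofolate dehydrogenase, changed by 0.33 and 0.26 (blocked 0.30 ± 0.22, edgeR adjusted p = 0.689).

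**Figure D2:**
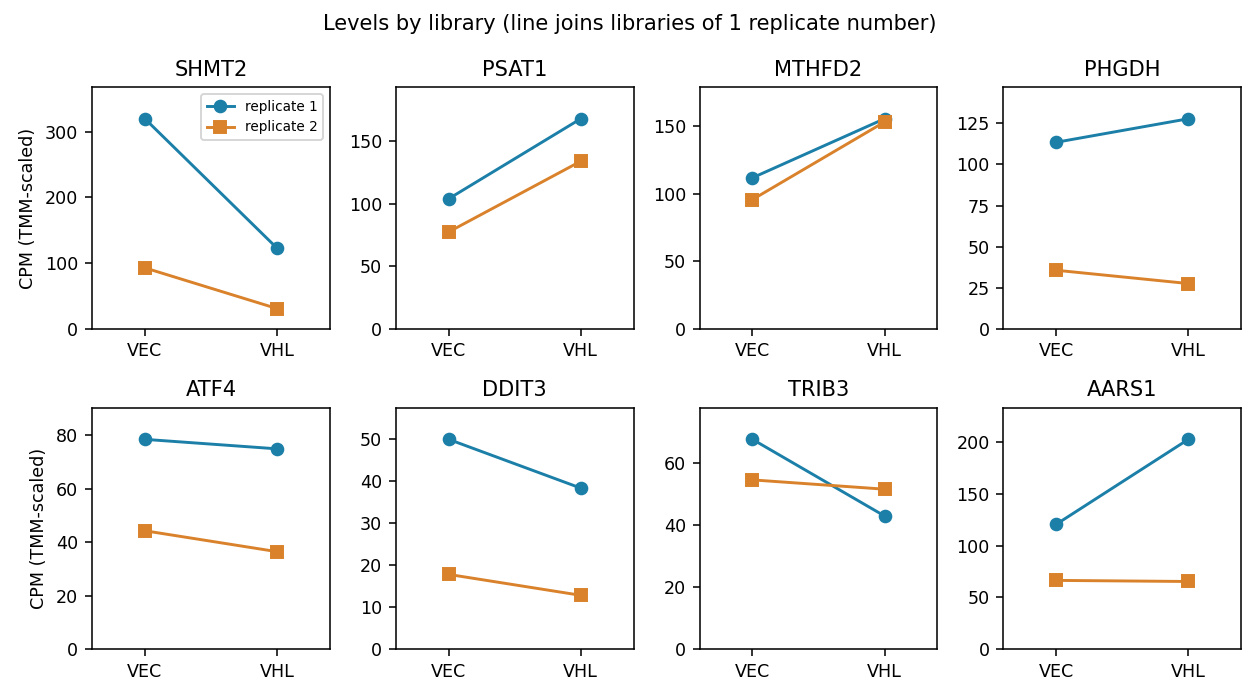
TMM-scaled CPM (y axis, starting at 0) of 8 genes in VEC and VHL libraries (x axis), with a line joining the libraries of each replicate number. SHMT2 drops from 320 to 123 and from 92.6 to 30.7 CPM, PSAT1 and MTHFD2 are higher in VHL in both pairs, and PHGDH and AARS1 differ between the pairs.

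Of the 7 transcription factors and regulators of the stress response, none passed the threshold in the blocked fit, and their median blocked change was -0.07. ATF4 measured 78.5 and 75.0 CPM in replicate 1, and 44.3 and 36.5 CPM in replicate 2. VHL was slightly below VEC in each pair (-0.07 and -0.28), less than the gap between replicates, and the blocked change was -0.17 ± 0.21 (edgeR adjusted p = 0.892). In replicate 2, 4 ATF4 pseudogenes held 3368 counts in VEC and 2469 in VHL, more than ATF4 itself at 2022 and 1492. With them added the replicate 2 change was -0.29.

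DDIT3, also called CHOP, a C/EBP-family factor of prolonged stress, was at 50.0 and 38.4 CPM in replicate 1 and at 17.8 and 12.9 CPM in replicate 2. The pair changes were alike, -0.38 and -0.47, and the blocked change was -0.43 ± 0.23 (edgeR adjusted p = 0.432). DDIT3 overlaps MARS1 in the RefSeq annotation, so without strand some reads cannot be assigned between them. NUPR1, a small stress-induced chromatin protein, was at 23.0 and 16.7 CPM and at 5.96 and 4.26 CPM, and its changes of -0.46 and -0.48 were as close (blocked -0.47 ± 0.28, edgeR adjusted p = 0.543). Both genes were thus lower in VHL in each pair, without passing the test.

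ATF3, an early stress-response factor of the ATF family, had few counts, 64 and 83 in replicate 1 and 39 and 71 in replicate 2. It was higher in VHL in both pairs (0.67 and 0.97), with a blocked change of 0.85 ± 0.45 (edgeR adjusted p = 0.445). CEBPB, a C/EBP factor that can pair with ATF4, was at 3.76 and 4.99 CPM and at 3.31 and 5.14 CPM, and its VHL libraries were above its VEC libraries (blocked 0.53 ± 0.37, edgeR adjusted p = 0.664). CEBPG, another ATF4 partner, changed by 0.01 and 0.51, and ATF5, a factor translated much like ATF4, by 0.15 and -0.26.

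The 5 genes that act downstream of ATF4 to limit signalling or growth held no call, with a median blocked change of -0.18. TRIB3, a pseudokinase that restrains ATF4 and AKT signalling, was at 67.6 and 42.9 CPM in replicate 1 but at 54.6 and 51.6 CPM in replicate 2. Its libraries did not overlap between groups, yet nearly all of the difference came from the first pair (-0.65 against -0.08), and the blocked change was -0.36 ± 0.21 (edgeR adjusted p = 0.520). CHAC1, which degrades glutathione and is a sensitive ATF4 target, had 8 and 17 counts in replicate 1 and 9 and 10 in replicate 2. Such counts leave its change of 0.87 ± 0.78 poorly determined (blocked, edgeR adjusted p = 0.793). PPP1R15A, or GADD34, which directs dephosphorylation of eIF2, changed by -0.10 and -0.52. SESN2, which restrains mTORC1 when leucine is scarce, changed by 0.08 and -0.12, and EIF4EBP1, the translation repressor 4E-BP1, by 0.06 and -0.42.

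Both enzymes that convert homocysteine to cysteine were higher in VHL in each pair, and neither passed the test. CTH, the lyase, was at 3.97 and 7.24 CPM in replicate 1 and at 7.72 and 10.8 CPM in replicate 2 (0.85 and 0.48). Its blocked change was 0.66 ± 0.32 (edgeR adjusted p = 0.344). CBS, the synthase, changed by 0.46 and 0.08, and the second of these became -0.01 when only protein-coding genes set the scaling.

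Of the 3 genes of endoplasmic reticulum stress, 2 had opposite signs in the pairs and 1, HERPUD1, was lower in VHL in both. None passed the threshold. HSPA5, the chaperone BiP, was at 34.1 and 51.8 CPM in replicate 1 and at 301 and 256 CPM in replicate 2. It was higher in VHL in the first pair (0.60) and lower in the second (-0.23), and both values are small beside the step between replicates (blocked 0.17 ± 0.23, edgeR adjusted p = 0.914). Its pseudogene HSPA5P1 had 2 and 0 counts in replicate 1 and 4343 and 2587 in replicate 2. XBP1, the factor spliced by IRE1, changed by -0.27 and 0.21. HERPUD1, a component of the degradation machinery of the reticulum, was at 16.5 and 15.6 CPM and at 26.4 and 14.9 CPM, so its lower level in VHL rested on replicate 2 (-0.08 and -0.82, blocked -0.46 ± 0.25, edgeR adjusted p = 0.461).

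**Figure D3:**
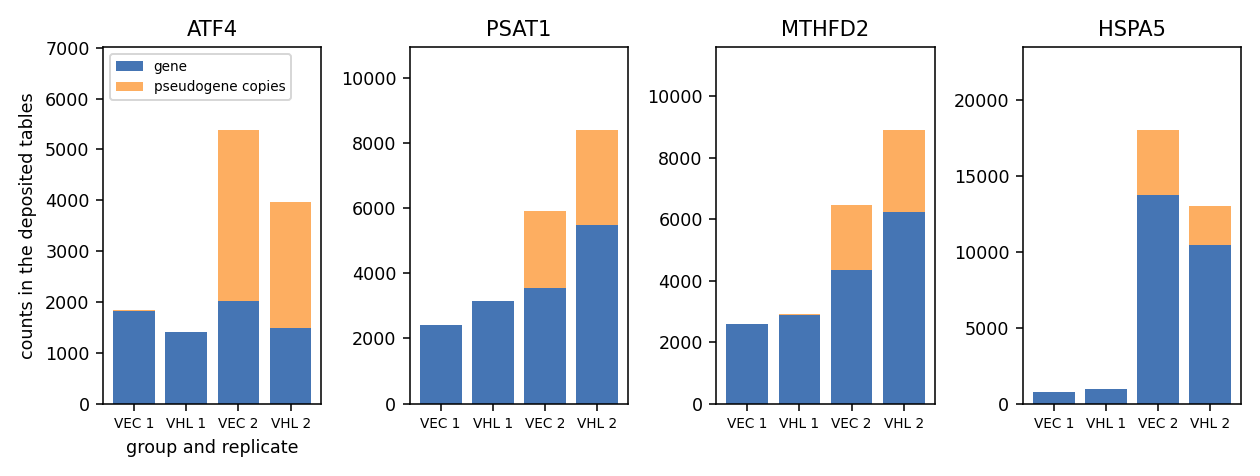
Counts in the deposited tables (y axis) at ATF4, PSAT1, MTHFD2 and HSPA5 (lower bars) and at their pseudogene copies (upper bars) in the 4 libraries (x axis, group and replicate number). The copies hold almost no counts in replicate 1 and up to 4343 counts in replicate 2, where VHL lies above VEC for PSAT1 and MTHFD2 and below it for ATF4 and HSPA5.

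The 12 cytosolic aminoacyl-tRNA synthetases, which charge tRNAs with their amino acids and are common ATF4 targets, held no call in the blocked edgeR fit. Their blocked log2 changes ran from -0.37 to 0.42 with a median of 0.16, and their SE were between 0.21 and 0.26. Within pairs, 5 were higher in VHL in both, 2 were lower in both and 5 had opposite signs. IARS1, the isoleucine enzyme, had the largest of these changes and was at 726 and 853 CPM in replicate 1 and at 222 and 337 CPM in replicate 2. Its changes of 0.23 and 0.60 gave 0.42 ± 0.26 in the blocked fit (edgeR adjusted p = 0.586), and the blocked DESeq2 fit called it (adjusted p = 0.0419).

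AARS1, the alanine enzyme, was at 121 and 203 CPM in replicate 1 but at 66.5 and 65.4 CPM in replicate 2. Its change of 0.75 in the first pair was thus missing from the second (-0.02). The tyrosine enzyme YARS1 (0.52 and -0.01) and the methionine enzyme MARS1 (0.51 and -0.08) showed the same split between pairs. CARS1, the cysteine enzyme, was split the other way, at -0.12 and 0.60. SARS1, the serine enzyme, was lower in VHL in both pairs, at 98.2 and 85.7 CPM and at 24.4 and 16.6 CPM (blocked -0.37 ± 0.21, edgeR adjusted p = 0.504).

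WARS1, the tryptophan enzyme, which interferon also induces, changed by 0.21 and -0.09 (blocked 0.06 ± 0.21, edgeR adjusted p = 0.985). GARS1, the glycine enzyme, changed by -0.02 and -0.25, the first of which became 0.02 when protein-coding genes set the scaling. The remaining 4 were higher in VHL by at most 0.33 in either pair: TARS1 (threonine) at 0.05 and 0.06, NARS1 (asparagine) at 0.04 and 0.18, EPRS1 (glutamate and proline) at 0.04 and 0.12, and LARS1 (leucine) at 0.12 and 0.33. The second TARS1 value became -0.03 with scaling on protein-coding genes. Missing the threshold does not show that these genes were unaltered.

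**Figure D4:**
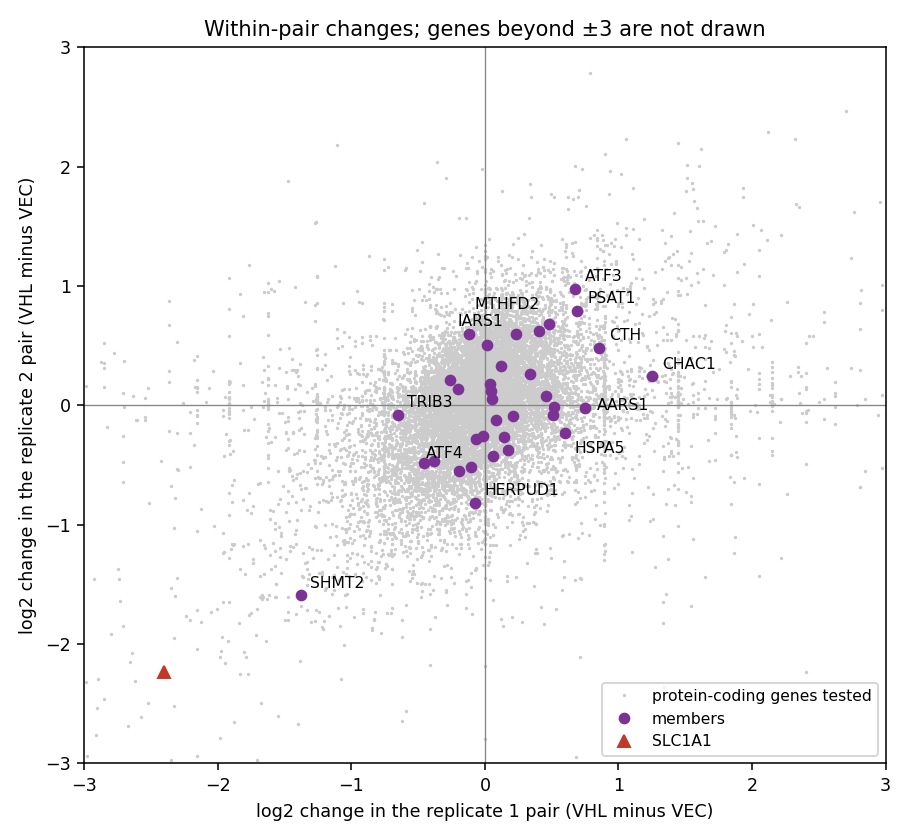
Log2 change within replicate 1 (x axis) against that within replicate 2 (y axis) for the 35 genes (large points), SLC1A1 (triangle) and the protein-coding genes tested (grey points). SHMT2 (-1.38 and -1.59) lies on the side of SLC1A1 (-2.41 and -2.24), and most of the others sit within the grey cloud. Genes beyond 3 on either axis are not drawn.

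Genes that carry the ATF4 core in the promoter were set beside those that do not. The 11 with the core had a median blocked change of 0.24, from -0.46 in HERPUD1 to 0.87 in CHAC1, and held 0 calls. The 17 in the table without it had a median of -0.02 and 1 call, PSAT1. The order of the 2 sets differed between pairs. In replicate 1 the median was 0.05 with the core and 0.15 without it. In replicate 2 it was 0.18 with the core and -0.09 without it. Over all 403 genes tested that hold the core in the table, the median was 0.01 and 5.0% were called.

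Other genes of these pathways were taken from lists that share no gene with the 35. Of 21 genes listed for eIF2, its kinases and their pathway, 1 was called, against 3.1% of all genes tested. This was DDIT4, an mTORC1 inhibitor that is neither a part of eIF2 nor one of its kinases. DDIT4 is known as a target of both hypoxia and ATF4. It measured 209 and 75.2 CPM in replicate 1 and 32.8 and 10.7 CPM in replicate 2 (blocked -1.54 ± 0.22, edgeR adjusted p = 1.37e-09). EIF2AK4, which encodes GCN2, changed by 0.30 and 0.25 in the pairs and was not called (blocked 0.28 ± 0.21, edgeR adjusted p = 0.716).

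Among 20 tested genes from a list of further ATF4 targets, 3 fell and 1 rose in the blocked fit, where 2.35% of all genes tested were called lower and 0.749% higher. The median of the list was -0.14. STC2, a secreted glycoprotein, fell, at 125 and 39.4 CPM in replicate 1 and 68.4 and 22.7 CPM in replicate 2 (blocked -1.63 ± 0.22, edgeR adjusted p = 3.61e-11). VEGFA, the angiogenic factor, fell by 0.99 on the log2 scale (SE 0.21, edgeR adjusted p = 0.000434). VLDLR, a lipoprotein receptor, fell by 0.79 (SE 0.23, edgeR adjusted p = 0.0271) and is named outside the rule for named genes. All 3 are also known as hypoxia-induced genes. GDF15, a stress cytokine, rose, at 8.42 and 20.2 CPM in replicate 1 and 2.52 and 4.60 CPM in replicate 2 (blocked 1.07 ± 0.31, edgeR adjusted p = 0.0230), and was not called by the blocked DESeq2 fit (adjusted p = 0.106).

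SLC7A11, the cystine and glutamate exchanger and a well-known ATF4 target, was at 207 and 290 CPM in replicate 1 and at 162 and 315 CPM in replicate 2. Both VHL libraries were above both VEC libraries, and the blocked change of 0.72 ± 0.24 just missed the threshold (edgeR adjusted p = 0.0710), which it passed with DESeq2 size factors (edgeR adjusted p = 0.0107). ASNS, the asparagine synthetase and a standard ATF4 readout, could not be read: it had 14 and 8 counts in replicate 1 and 16 and 16 in replicate 2. The RefSeq annotation places a readthrough transcript, CZ1P-ASNS, over it, with at most 5 counts in a library. It also places 2 pseudogenes there. RPS3AP29 had 1 and 5 counts in replicate 1 and 1608 and 1250 in replicate 2, and SNRPCP9 had 0 and 0, then 123 and 57. Their part in the ASNS counts was not tested.

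Of 11 other cytosolic synthetase and scaffold genes, 1 was called in the blocked fit, where 3.1% of all genes tested were called. It was EEF1E1, a scaffold protein of the multi-synthetase complex. It rose, at 29.1 and 41.1 CPM in replicate 1 and 38.9 and 80.3 CPM in replicate 2 (blocked 0.78 ± 0.21, edgeR adjusted p = 0.0150). The 17 mitochondrial synthetases held 0 calls, with a median of -0.01, and the 20 other unfolded protein response genes held 0 calls, with a median of -0.02. Among 14 further serine, glycine, folate and glutathione genes the one call was GSS, glutathione synthetase, which fell, at 119 and 78.3 CPM in replicate 1 and 28.5 and 13.3 CPM in replicate 2 (blocked -0.84 ± 0.21, edgeR adjusted p = 0.00536).

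**Figure D5:**
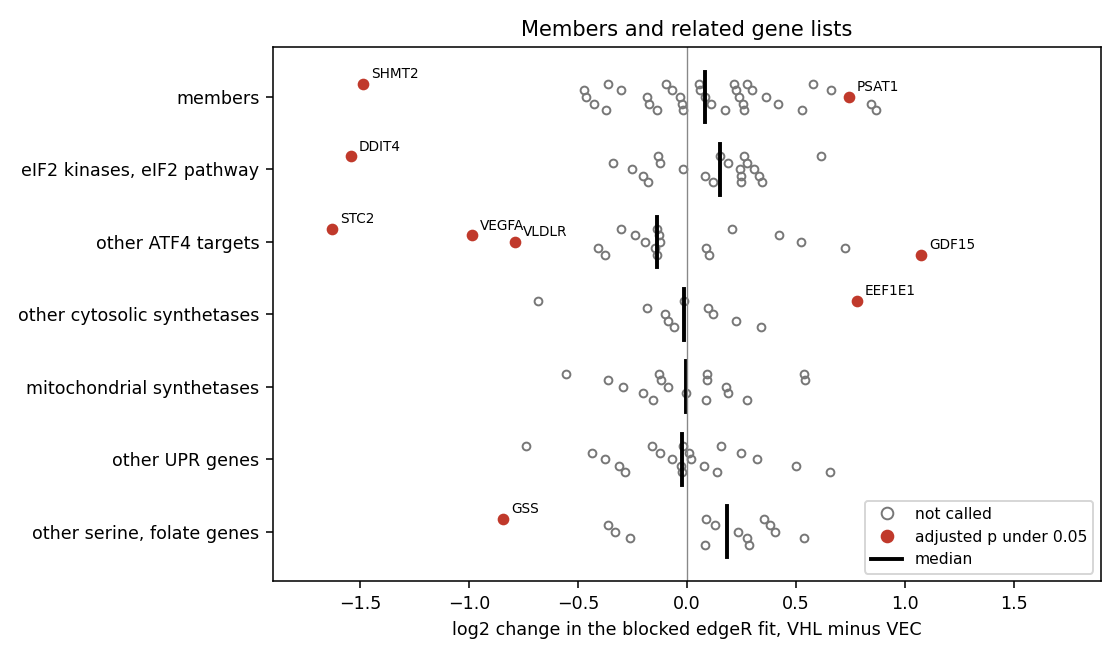
Log2 change in the blocked edgeR fit (x axis) for the 35 genes (members) and 6 related lists (y axis), with 1 point per gene tested, filled where the adjusted p was under 0.05, and a bar at each median. List medians lie between -0.14 and 0.18, and the called genes SHMT2, DDIT4 and STC2 stand apart from the rest of their lists. PSAT1 does not: at 0.74 it lies below CHAC1 (0.87) and ATF3 (0.85), which were not called.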

How the data were processed

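RNA values were the raw counts per gene symbol that the authors deposited, 1 table per library. The submitters' processing notes name featureCounts, HOMER and build hg19, with no version or role. The aligner, annotation, strand and multi-mapping settings are not given in the sources used here. Per the file headers, the alignment names of replicate 2 libraries hold the word genome and those of replicate 1 do not. H3K27ac tables were not used here, since their regions cannot be assigned to genes.

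Tests used edgeR 4.0.16 under R 4.3.3, with filterByExpr, TMM scaling and the two-sided quasi-likelihood test with Benjamini-Hochberg adjustment over all 24417 genes. The SE of a log2 change is its size over the root of the F statistic. Dispersion is pooled in part over genes, so genes with unlike pairs can have like SE. TARS1 (0.05 and 0.06) and HSPA5 (0.60 and -0.23) both had a blocked SE of 0.23. Pair changes are differences of log2 CPM, to which a prior count of 2 was added. An alternative fit used DESeq2 1.42.0. Group was the only term of the main design. The block was added because earlier results of these data had shown the replicate numbers to act as a batch, although the labels name none. Deviations from group means correlated at 0.983 over 21673 genes between same-numbered libraries. The blocked fit leaves 1 residual degree of freedom. Its common dispersion was 0.025, against 2.57 with group alone, since the difference between replicate numbers is taken out. Gene classes came from RefSeq GRCh38.p14, which matched 96.4% of symbols.

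Members and lists were chosen with earlier results of these data known. By rule, test results are given for members called in either fit, the 8 with the largest blocked changes, ATF4, DDIT3, TRIB3, CHAC1, PHGDH, PSAT1, HSPA5 and WARS1, the non-members ASNS, SLC7A11, SLC1A1 and CA9, and up to 3 called genes per other pathway list. Outside this rule they are also given for HERPUD1, ALDH1L2, IARS1, SARS1, SHMT1, EIF2AK4, VLDLR and PPP1R15B. CA9 was at 67.5 and 1.55 CPM in VEC and VHL of replicate 1 and at 61.8 and 1.40 CPM in replicate 2. Its blocked log2 change was -5.45 (edgeR adjusted p = 2.04e-76), and that of ASNS was -0.14 (edgeR adjusted p = 0.992). With group alone the changes were -5.45 for CA9 and -0.22 for ASNS, each with an edgeR adjusted p of 0.999991.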

Additional observations from a re-analysis of the deposited data

How the results depend on the processing

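The calls depended on the replicate block. Group alone called 0% of genes, and DESeq2's Wald test without the block called 0.0246% (6 genes), with 0 of the 35 among them. The replicate block called 3.1% of genes and 2 of the 35. With the block, DESeq2 size factors gave 4.09% and 2, the stricter filter (at least 20 counts in 2 libraries) 3.41% and 2, no filter 1.95% and 1, protein-coding genes alone 7.1% and 3, and the DESeq2 Wald test 4.93% and 4. SHMT2 was among them each time. PHGDH, at 0.06 with group alone, was -0.10 with the block, -0.13 with size factors, -0.13 in DESeq2, -0.10 under the stricter filter, -0.11 without a filter and -0.12 on protein-coding genes. HSPA5, at -0.12, was 0.17, 0.13, 0.14, 0.17, 0.16 and 0.14 in the same order. Leaving out 1 library compares unlike replicate numbers: the lone library is assumed to vary like the others, 0 genes and 0 of the 35 were called, and the median over the 35 ran from -0.49 to 0.81. The ranges were -0.75 to 0.33 for ATF4, -0.055 to 1.85 for ATF3, -1.40 to 0.52 for DDIT3, -1.76 to 0.81 for NUPR1, -0.14 to 1.71 for CHAC1, -1.44 to 1.13 for PHGDH, -1.79 to 2.22 for HSPA5, -0.44 to 0.47 for WARS1, -0.52 to 0.22 for ASNS, -3.49 to 0.39 for DDIT4, -0.25 to 2.30 for GDF15 and -2.47 to 0.68 for GSS. Without a change of sign, TRIB3 ran from -0.54 to -0.21, CTH from 0.23 to 1.22 and EEF1E1 from 0.22 to 1.24. SHMT2 ran from -2.75 (without VHL replicate 1) to -0.27 (without VEC replicate 1) and PSAT1 from 0.56 to 0.96. The median over the 35 kept its sign under all other settings, and prior counts of 0.5 and 5 moved the pair medians by less than the spread between pairs. CHAC1 and ASNS had no more than 17 and 16 counts in any library, which limits the precision of their changes.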

Other observations

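PPP1R15B, the constitutive partner of eIF2 dephosphorylation, passed only in part of the blocked fits. It was at 108 and 153 CPM in VEC and VHL of replicate 1 and at 98.5 and 162 CPM in replicate 2. Its change of 0.61 ± 0.22 was not called in the blocked edgeR fit (adjusted p = 0.122) and was called by DESeq2 with the block (adjusted p = 2.79e-08). It was named after its values were seen.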
